A study of Rattus norvegicus with 65 samples.

Results

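The genes described here are the 7 genes that encode the subunits of AMP-activated protein kinase (AMPK), namely Prkaa1, Prkaa2, Prkab1, Prkab2, Prkag1, Prkag2 and Prkag3, together with Sirt1, Ppargc1a and Ucp2, which act beside AMPK in energy sensing. They were chosen by gene symbol, as 10 of the 38513 genes in the count table. All 10 were among the 21871 genes kept by a filter on low counts.

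The data were 65 RNA-seq libraries from the dissected hypothalamus of male Wistar rats, 1 library per animal. Rats were 9 to 10 weeks old at the start and, the lean group apart, had 6 weeks of high-fat feeding before treatment, and tissue was taken 4 weeks after treatment began and after a 10 h fast. Roux-en-Y gastric bypass (RYGB, 14 animals), sham surgery (sham, 11) and sham surgery with food restricted so that body weight matched the bypass animals (BWM, 7) formed the surgical arm. The lean group (6) carried no treatment in the labels and was taken as animals kept on low-fat diet. The hormone arm held saline (8), liraglutide at 0.4 mg/kg/day (5), a stable agonist of the GLP-1 receptor, PYY3-36 at 0.1 mg/kg/day (4), a gut peptide that acts at Y2 receptors, and PYY3-36 + liraglutide (10). Animals came from 2 experimental periods, batch A with 37 animals and batch B with 28, and both batches were held only by RYGB (11 and 3), sham (5 and 6), saline (3 and 5) and PYY3-36 + liraglutide (5 and 5). BWM and lean were in batch A alone, and liraglutide and PYY3-36 in batch B alone, so these 4 groups had no second period. RYGB, BWM and lean were each compared with the same sham animals, and the 3 hormone groups with the same saline animals, so comparisons within an arm share their controls.

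AMPK is a heterotrimer of a catalytic alpha subunit, a scaffolding beta subunit that binds glycogen, and a gamma subunit that binds AMP, ADP and ATP. When cellular energy falls, upstream kinases phosphorylate the alpha subunit and the enzyme switches cells from ATP use to ATP supply. In the hypothalamus AMPK is known as a sensor of hormones and nutrients in neurons that govern food intake. Sirt1 is an NAD-dependent deacetylase, Ppargc1a is a coactivator of mitochondrial biogenesis, and Ucp2 is a mitochondrial inner membrane carrier. RNA levels do not report the phosphorylation of the kinase or its activity.

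Libraries held between 20041010 and 36539941 counts, with a median of 27379945. Dissections differed in content. A score that averages log2(CPM + 1) over 19 hypothalamic marker genes ran from 1.71 to 5.57, and 13 libraries were below 3, among them 4 of 11 sham libraries and no RYGB library. The score of 9 anterior pituitary genes was above 5 in 2 libraries, both BWM, of which BWM 5 held 62724 CPM of growth hormone (Gh1) and 12887 CPM of prolactin (Prl), whereas Prl was at 0 in 42 of 65 libraries. The summed level of 10 meningeal genes was 78.0 to 157 CPM in batch A sham, 101 to 3648 CPM in BWM and 121 to 3835 CPM in batch A RYGB, and all 10 were higher than sham at adjusted p below 0.05 in both groups. In the comparison of RYGB with sham over both batches, edgeR called no gene of the hypothalamic, neuronal, astrocyte, oligodendrocyte, tanycyte and ependymal, meningeal, pituitary, blood or striatal lists, and 1 gene in each of the microglial, endothelial, choroid plexus, thalamic, cortical (all higher), habenular and ribosomal protein (both lower) lists. In tissue RNA, fewer cells of a type and less RNA per cell cannot be told apart. Calls on members that changed when the 13 or the 2 libraries were left out are given both ways.

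At the level of the subunits, the hypothalamus held mostly Prkaa1, Prkab1 and Prkag1 transcripts. Levels of different genes were compared as CPM per kb of exon. By this measure Prkag1 was the highest of the 10 genes, with a median of 54.3 CPM per kb over 65 libraries, followed by Ucp2 at 37.1, Prkab1 at 10.6, Prkag2 at 8.65, Prkaa1 at 7.49, Prkab2 at 5.14, Ppargc1a at 4.88, Sirt1 at 4.54, Prkaa2 at 2.03 and Prkag3 at 0.00955. Neighbours from Prkab1 to Sirt1 overlapped across libraries. Per kb, Prkaa1 made up 78.2% of the alpha subunit signal (56.6 to 88.2% across libraries), and Prkab1 67.4% of the beta signal (47.6 to 80.0%). Prkag1 made up 86.5% of the gamma signal (78.4 to 91.1%) and Prkag2 13.5% (8.87 to 21.6%), with Prkag3, the isoform known from skeletal muscle, at 0.0153% (0 to 0.463%). The gamma total had a median of 62.7 CPM per kb, against 16.0 for beta and 9.78 for alpha. These are shares of transcripts, and protein was not measured.

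**Figure D1:**
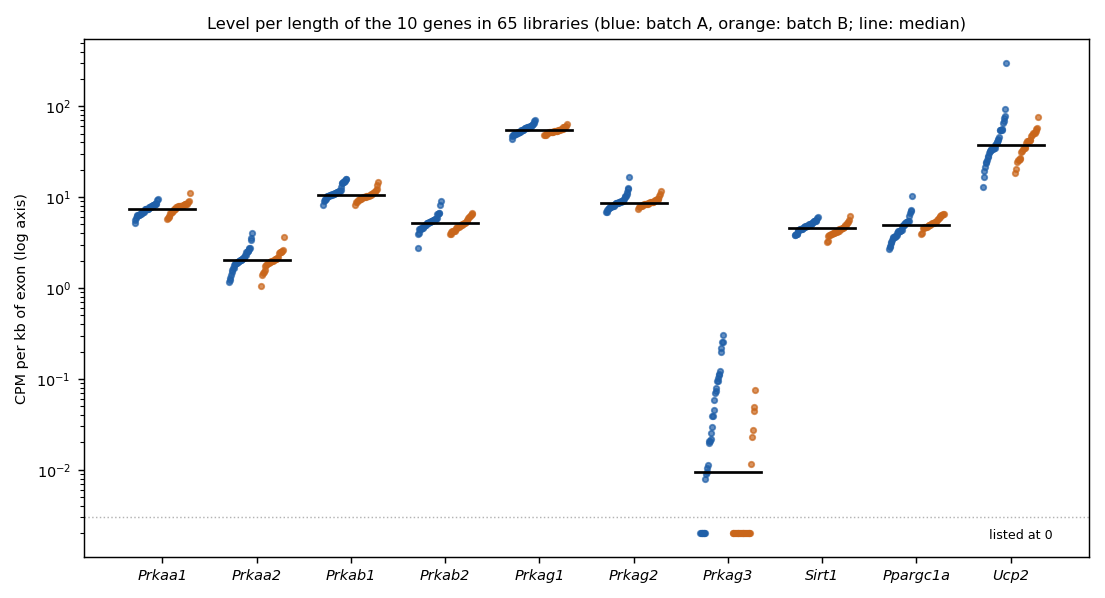
Level of each of the 10 genes in CPM per kb of exon (log axis), 1 point per library over 65 libraries, with libraries at 0 below the dotted line. Prkag1 and Ucp2 sit highest, with medians of 54.3 and 37.1, and Prkag3 lowest, with a median of 0.00955.

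Variation between animals was smallest for the dominant gamma subunit. The coefficient of variation over 65 libraries was 9.56% for Prkag1, between 13.8 and 16.9% for Sirt1, Prkaa1, Prkab1 and Prkag2, larger for Prkab2 and Ppargc1a, 26.7% for Prkaa2 and 80.9% for Ucp2. Ucp2 ran from 20.7 to 480 CPM, a 23.2-fold range, and its highest library was BWM 5. Within a batch, each compared pair of groups overlapped for every member, apart from Prkag1, Prkag2 and Ppargc1a under PYY3-36.

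**Figure D2:**
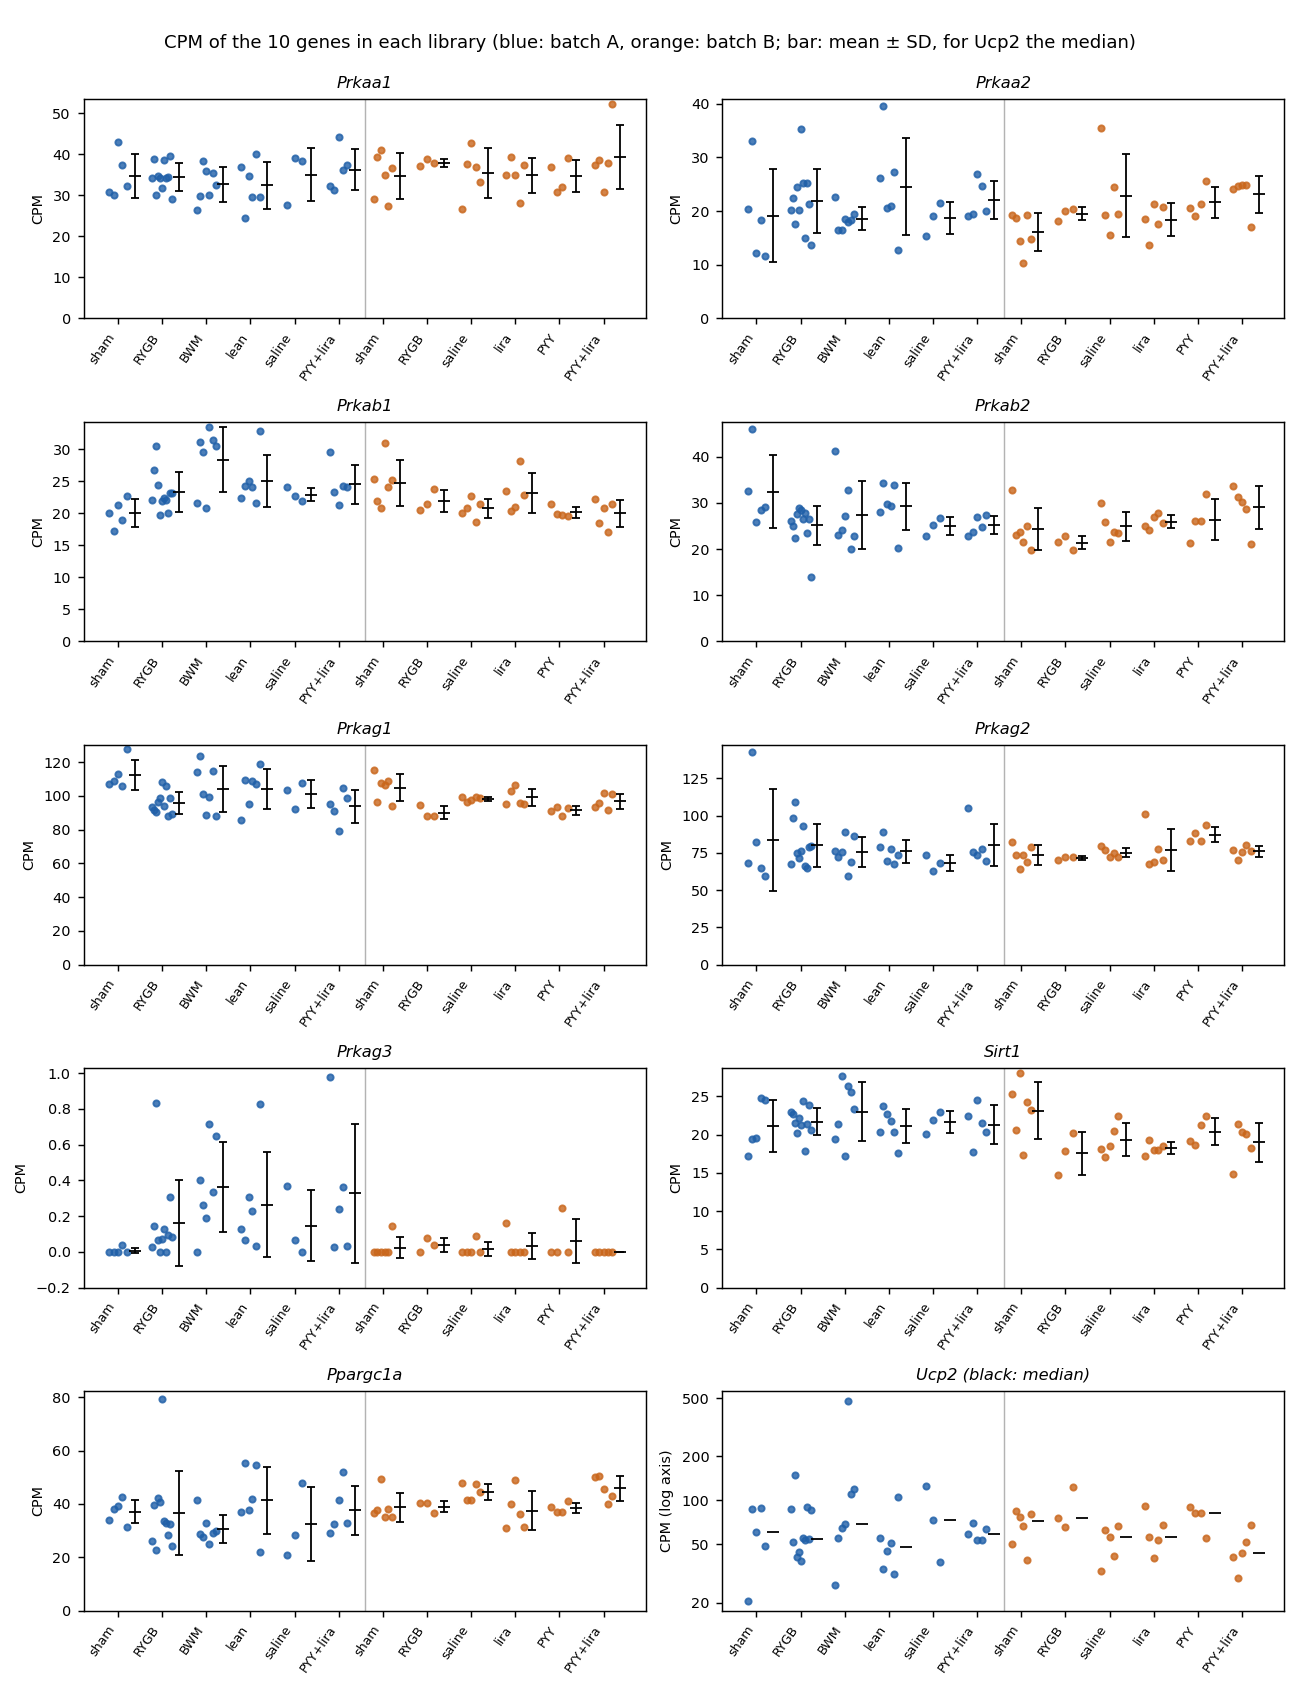
CPM of the 10 genes in every library, by group and batch, with bars for the mean ± SD (Ucp2 on a log axis with the median only). The 11 RYGB libraries of batch A lie between 87.9 and 109 CPM for Prkag1 and the 5 sham libraries between 105.98 and 128 CPM.

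The comparison of RYGB with sham asked how the bypass changed the hypothalamus against surgery alone. Of the 10 genes, Prkag1 alone passed the test, and it was lower after RYGB. With 13% of all tested genes called, and 6.53% called lower, 1 of 10 is close to the background. Prkag1, the main gamma subunit by transcript share (Rnor_6.0 chr7:140489499-140506925, minus strand), stood at 107, 109, 113, 105.98 and 128 CPM in the 5 batch A sham libraries. The 11 batch A RYGB libraries ran from 87.9 to 109 CPM with a median of 94.0 CPM, and 10 of the 11 lay below the lowest sham library. In batch B the RYGB libraries were at 94.6, 88.0 and 87.9 CPM, against 94.3 to 115 CPM with a median of 107 CPM in sham, and 2 of 3 lay below the lowest sham. The groups were thus shifted but overlapped in both batches.

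Over both batches the log2 fold change of Prkag1 was −0.21 (SE 0.052, 95% interval −0.31 to −0.11, adjusted p = 0.00659 by edgeR), a level 0.865 times that of sham. Within batch A it was −0.23 (SE 0.067, adjusted p = 0.0250), where 8.64% of genes were called. In batch B it was −0.22 (SE 0.089, adjusted p = 0.141), where 2.74% were called. No member was called in batch B by edgeR or DESeq2, and 2 had an unadjusted p below 0.05, against 21.8% of all genes. The Prkag1 difference between the batches was 0.01 (SE 0.11, unadjusted p = 0.899). Leaving out any 1 of the 25 RYGB and sham libraries kept the value between −0.22 and −0.18 and the call in all 25 fits, whereas the call within batch A was lost without sham 2 or without sham 5 (largest adjusted p = 0.117). Against saline in place of sham, the Prkag1 difference was −0.09 (SE 0.057, adjusted p = 0.9999 by edgeR). By edgeR 0 members passed, with 0 at an unadjusted p below 0.05. DESeq2 was not run on this pair. The share of all genes for this pair is not given here, so these counts are not read as particular to the members. Sham itself was 0.12 above saline for Prkag1 on the log2 scale (adjusted p = 0.371). Prkag1 deviations from the group means ran against those of the astrocyte score (r = −0.55 over 65 libraries, which share their tissue composition and depth), and the median difference of the 8 astrocyte genes between RYGB and sham was 0.22 on the log2 scale. The part of astrocyte content in the Prkag1 difference was not tested separately. With 3 marker scores of other cell types in the model the Prkag1 difference over both batches was −0.17 (adjusted p = 0.0273). Within batch A, the call of Prkag1 was lost with the same scores (−0.16, adjusted p = 0.213) and with no filter on low counts (−0.20, adjusted p = 0.0624).

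The other gamma subunits did not pass. Prkag2, another gamma isoform (chr4:6559153-6799888, plus strand), had a log2 fold change of −0.03 (95% interval −0.21 to 0.16). One library, sham 2, stood at 143 CPM for Prkag2, against 59.3 to 82.2 CPM in the other 4 sham libraries of batch A. Its hypothalamic score was 1.95, below 3. Prkag2 counts were not whole numbers in 53.8% of libraries, a share above that of any other member. The counting shared such reads between places or genes.

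Neither catalytic subunit was called. Prkaa1 (chr2:54857688-54893404, plus strand) differed by 0.04 (SE 0.085, 95% interval −0.12 to 0.21) between RYGB and sham. For Prkaa2 (chr5:124568845-124642569, minus strand) the 5 batch A sham libraries were at 20.4, 33.0, 12.2, 18.4 and 11.6 CPM, a spread that covered nearly all of the 11 RYGB libraries (13.7 to 35.2 CPM, median 21.2). In batch B, RYGB stood at 18.2, 20.1 and 20.3 CPM and sham between 10.3 and 19.3 CPM. The log2 fold change of Prkaa2 was 0.28 (SE 0.15, adjusted p = 0.201). With the 13 libraries of low hypothalamic score left out, it was 0.58 (SE 0.14, adjusted p = 0.00648), past the threshold, as it was without sham 2 alone (0.45, adjusted p = 0.0410). Within batch A, Prkaa2 was likewise called without the low-score libraries (0.64, adjusted p = 0.0408). Prkaa2 ran against the hypothalamic score (r = −0.61 over 65 libraries) and followed the neuronal score (r = 0.66). The 2 sham libraries of low hypothalamic score in batch A, at 20.4 and 33.0 CPM, were its highest sham values there. The part of dissection in the Prkaa2 result was not tested beyond leaving those libraries out.

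The beta subunits, which hold the complex together, did not pass either. In batch A, Prkab2 (chr2:199831990-199847623, plus strand) was at 32.7, 45.9, 25.9, 28.5 and 29.0 CPM in sham and 13.999 to 28.8 CPM (median 26.4) in RYGB, and all 11 RYGB libraries lay below the sham median. Prkab2 differed by −0.37 on the log2 scale (adjusted p = 0.0690) in batch A, by −0.18 (adjusted p = 0.596) in batch B, and over both batches by −0.24 (SE 0.11, adjusted p = 0.130), or −0.04 (adjusted p = 0.844) without the 13 libraries of low hypothalamic score. Prkab1 (chr12:46316298-46326789, plus strand) was 0.22 above sham in batch A (adjusted p = 0.166) and 0.17 below in batch B (log2 fold change −0.17, adjusted p = 0.461), with 0.01 over both. The Prkab1 response in batch B less that in batch A was −0.39 (unadjusted p = 0.0226, adjusted p = 0.377). Such a difference of response was called for no member by edgeR, 2 had an unadjusted p below 0.05, and 0% and 10.4% of all genes passed the same thresholds.

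Sirt1, the NAD-dependent deacetylase (chr20:26831971-26851587, minus strand), gave values of 14.7, 17.8 and 20.3 CPM in batch B RYGB, where the 6 sham libraries ran from 17.4 to 28.1 CPM with a median of 23.8. Batch A showed no such shift, with 17.9 to 24.4 CPM in RYGB and 17.2 to 24.8 CPM in sham. On the log2 scale Sirt1 differed by −0.40 (SE 0.13, adjusted p = 0.0731) in batch B, 0.04 in batch A, and −0.14 (adjusted p = 0.254) over both. The Sirt1 difference between batches was −0.44 (unadjusted p = 0.0105, adjusted p = 0.295). Of the 9 fits of batch B that left out 1 library, only that without sham 7 called Sirt1 (adjusted p = 0.0484).

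Ppargc1a (chr14:63095291-63190688, plus strand) differed by 0.03 (95% interval −0.24 to 0.31) and Ucp2 (chr1:165506375-165512744, plus strand) by 0.15 (95% interval −0.40 to 0.71), neither with a call. The 14 RYGB libraries overlapped the sham libraries for both genes. The highest Ppargc1a value of all, 79.4 CPM in RYGB 6, came from the library with the highest neuronal score of the RYGB group (9.18), and Ppargc1a followed that score over 65 libraries (r = 0.80). An unadjusted p below 0.05 was found for 3 of the 10 members and for 30.0% of all genes. The 3 include Prkag3, whose test against sham is given only as a description, for the reason set out below.

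**Figure D3:**
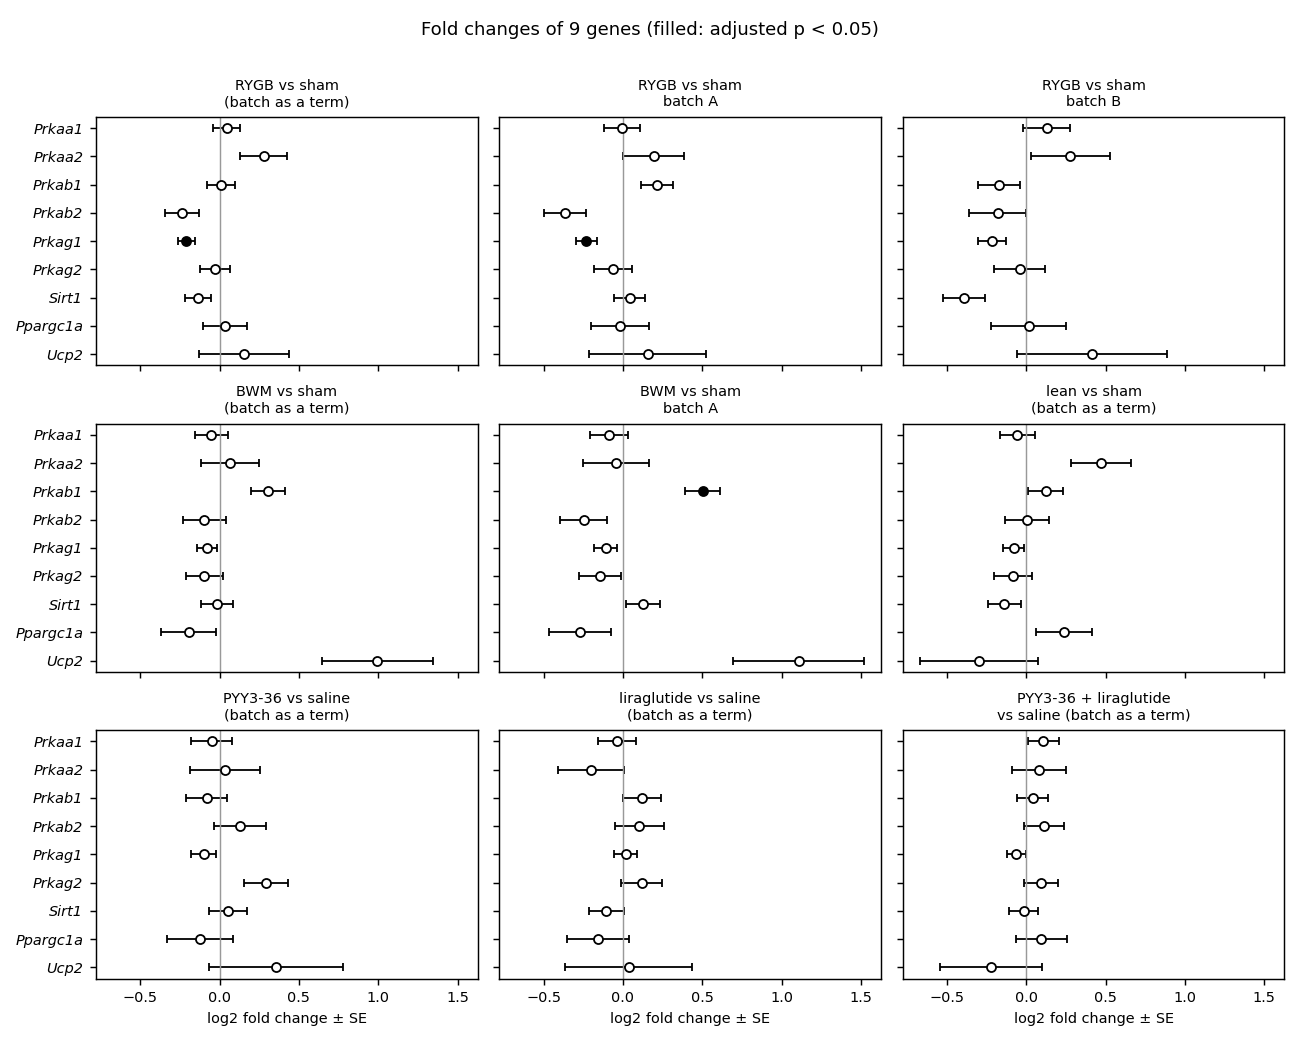
Log2 fold change ± SE of 9 members in 9 comparisons (Prkag3, near 0 counts, is left out). Filled points have an adjusted p below 0.05, and they are Prkag1 in RYGB against sham over both batches and in batch A, and Prkab1 in BWM against sham in batch A.

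The BWM group was included to set weight loss apart from the bypass itself. In the fit over both batches no member differed between BWM and sham by edgeR or by DESeq2, and 3 had an unadjusted p below 0.05, with 0.320% of all genes called and 12.3% at the unadjusted threshold. Within batch A, where all BWM animals were, 5.28% were called, and 2 members passed, Prkab1 and Prkag3. The Prkag3 call, like its unadjusted p against sham, is tied to how that gene passed the filter on low counts, as given below. The BWM libraries were at 21.7, 31.1, 29.5, 20.8, 33.5, 31.4 and 30.5 CPM of Prkab1 and the batch A sham libraries at 20.01, 17.2, 21.3, 18.9 and 22.7 CPM. Of the 7 BWM libraries, 5 were above the highest sham library, and BWM 1 and BWM 4 were within the sham range. Prkab1 rose by 0.50 on the log2 scale (SE 0.11, 95% interval 0.29 to 0.72, adjusted p = 0.00679 by edgeR), or 1.42-fold.

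The Prkab1 call within batch A held in all 12 fits that left out 1 library (0.45 to 0.56), and with the 13 libraries of low hypothalamic score left out (0.49, adjusted p = 0.0398). Without the 2 libraries high in pituitary genes Prkab1 was at 0.43 (adjusted p = 0.0737), and with 3 marker scores in the model at 0.26 (adjusted p = 0.401), neither past the threshold. The 6 sham libraries of batch B ran from 20.8 to 31.0 CPM (median 24.6, against 20.01 in batch A), and the comparison with all sham libraries gave 0.30 (adjusted p = 0.191). Between RYGB and BWM the Prkab1 difference was −0.29 (adjusted p = 0.209), Prkag1 −0.13 (adjusted p = 0.345) and Ucp2 −0.84 (adjusted p = 0.284). The Ucp2 value turned to 0.18 (adjusted p = 0.833) without the 2 pituitary-rich libraries and to 0.19 with 3 marker scores in the model. No member was called there by edgeR or DESeq2, 3 had an unadjusted p below 0.05 (12.6% of all genes), and 0.343% of all genes were called.

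Ucp2 in BWM turned on 1 library. The 7 BWM libraries stood at 26.6, 55.6, 64.8, 68.5, 480, 110 and 119 CPM, and the batch A sham libraries at 20.7, 87.4, 61.1, 88.6 and 48.8 CPM. The 480 CPM were in BWM 5, the library with 62724 CPM of Gh1, and the 119 CPM were in BWM 7, the other library high in pituitary genes. The log2 fold change in batch A was 1.11 (SE 0.41, adjusted p = 0.09997 by edgeR), and DESeq2 called it. Without BWM 5 it was 0.27 (adjusted p = 0.779), without BWM 1 it was 1.29 (adjusted p = 0.0267), and without both pituitary-rich libraries 0.09 (adjusted p = 0.967). Over 65 libraries Ucp2 followed the pituitary score (r = 0.79, or 0.66 without the 2 libraries farthest from the median of the score). Ucp2 also followed the tanycyte and ependymal score (r = 0.55) and the hypothalamic score (r = 0.50), and ran against the neuronal score (r = −0.54). The summed level of the 9 pituitary genes was 339 to 78555 CPM in BWM and 351 to 1004 CPM in batch A sham, 5 of the 9 were higher in BWM, and Pou1f1 and Fshb were at 0 in 35 and 52 of 65 libraries.

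**Figure D4:**
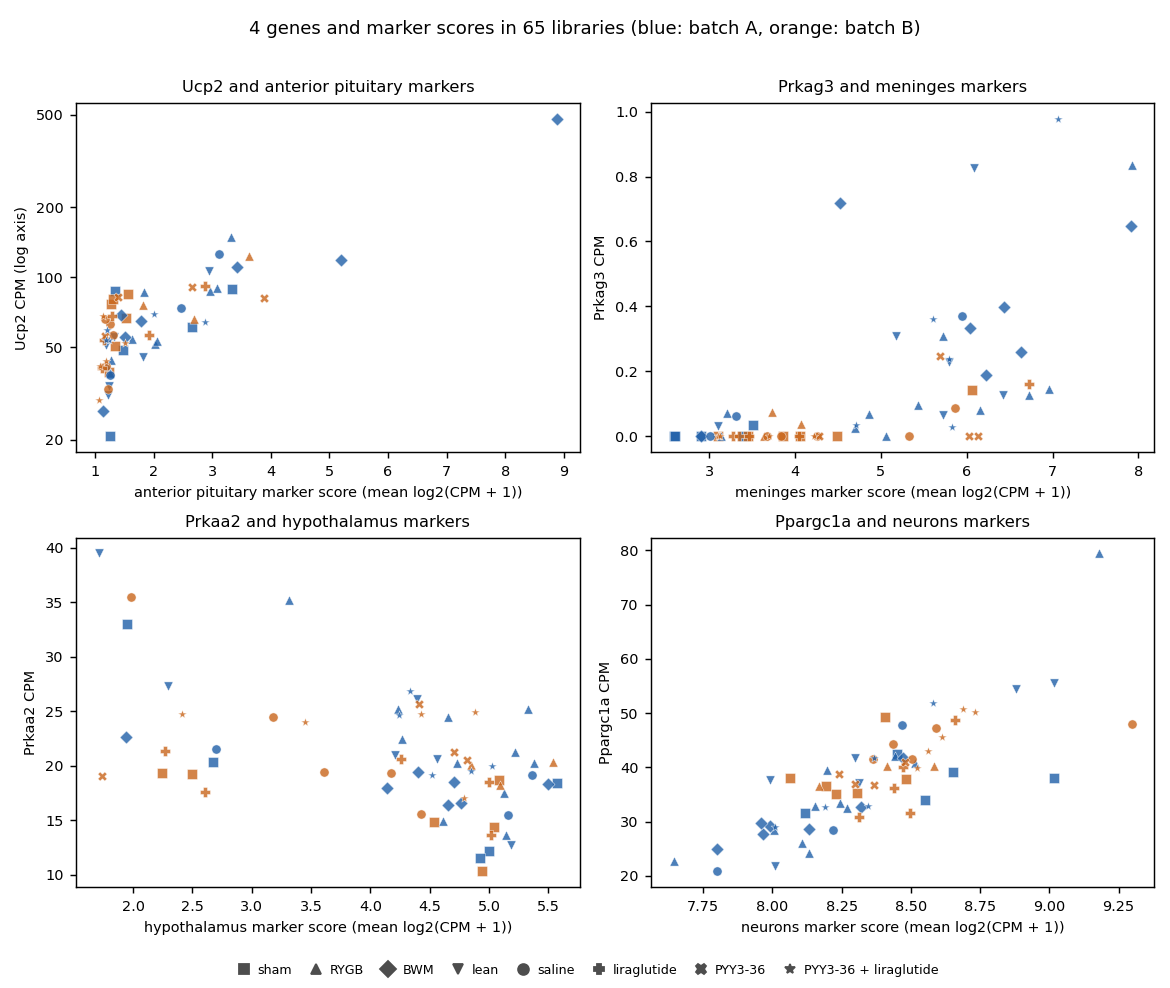
Level of Ucp2, Prkag3, Prkaa2 and Ppargc1a against a marker score, 1 point per library over 65 libraries. Ucp2 rises with the anterior pituitary score, where BWM 5 lies at 8.88, Prkag3 with the meningeal score and Ppargc1a with the neuronal score, and Prkaa2 falls with the hypothalamic score.

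Prkag3 (chr9:81999368-82008620, minus strand) was at the limit of detection. It had 268.5 counts over all libraries, of which 250 were in batch A and 18.5 in batch B, and 29 libraries were at 0. Summed over libraries there were 76 counts in the 7 BWM libraries, 54 in the 11 RYGB libraries of batch A, 51 in the 6 lean libraries, 54 in the 5 batch A libraries of PYY3-36 + liraglutide, 14 in the 3 batch A saline libraries, and 1 in the 5 batch A sham libraries. The ratio of the summed rates against batch A sham was 55.6 for BWM (exact 95% counting interval 9.68 to 2225), 24.8 for RYGB (4.26 to 996) and 41.4 for lean (7.10 to 1666). These intervals cover counting error only. The highest library held 22 of the BWM, 26 of the RYGB and 27 of the lean counts, and without it the ratios were 46.6 (8.01 to 1873), 14.1 (2.33 to 575) and 23.6 (3.84 to 969). All rest on a single sham count, and the edgeR fold changes of Prkag3 depend on the prior count. The summed rate was 0.00667 CPM in batch A sham but 0.161 CPM in batch A saline. It was 0.165 CPM in batch A RYGB, 0.276 CPM in lean and 0.371 CPM in BWM. The ratios against sham are thus not seen at that size against saline, whose rate rests on 3 libraries, with 12 of the 14 counts in 1.

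By edgeR, Prkag3 passed between BWM and sham in batch A (adjusted p = 0.0228), not between RYGB and sham (adjusted p = 0.0620 in batch A and 0.157 over both). Of 65 libraries, 8 held 10 or more counts of Prkag3, all in batch A, and none of these was sham. The filter, with its minimum count of 10, thus kept Prkag3 through groups where it was high. Its tests against sham and between the batches are not free of that choice and are given as a description. With the 13 libraries of low hypothalamic score left out, Prkag3 in BWM no longer passed (adjusted p = 0.0816). Nor did it without the 2 pituitary-rich libraries (adjusted p = 0.145), with 3 marker scores in the model (adjusted p = 0.852), or without BWM 7, sham 2 or sham 3 alone, and DESeq2 gave it no adjusted p. It followed the meningeal score over 65 libraries (r = 0.57), and that list was higher in BWM and RYGB by medians of 3.89 and 3.48 on the log2 scale against batch A sham. With 3 marker scores in the model, the Prkag3 fold change in RYGB turned from 2.13 to −0.03 on the log2 scale. Whether the reads came from meningeal tissue was not tested. Prkag3 was also lower in batch B than in batch A (log2 −2.52, adjusted p = 0.00590), the only member called between the periods, where 40.7% of all genes were. Without the 13 low-hypothalamus libraries Sirt1 was called there as well (−0.18, adjusted p = 0.0377).

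Lean animals showed no called difference from sham by edgeR or DESeq2, and the background was 0% of genes. An unadjusted p below 0.05 was found for 2 members, Prkaa2 and Prkag3, against 12.2% of all genes. The Prkag3 test is given as a description, since the filter kept that gene through groups where it was high. Prkaa2 stood at 26.2, 39.5, 20.6, 21.0, 27.4 and 12.7 CPM in the 6 lean libraries, and 5 of 6 lay above the batch A sham median (log2 fold change 0.47, 95% interval 0.10 to 0.84, adjusted p = 0.317). Lean and sham libraries of Prkaa2 overlapped, and without lean 6, the lowest of the lean libraries, Prkaa2 passed the test.

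The hormones were set against saline. PYY3-36, liraglutide and their combination gave no call among the members by edgeR or DESeq2. The background was 0% of genes for PYY3-36 and liraglutide alone and 0.00457% for the combination. Unadjusted p-values below 0.05 were found for 1, 0 and 0 of the 10 members, against 7.54, 2.08 and 2.53% of all genes. The single member was Prkag2 under PYY3-36, at 83.1, 88.0, 83.2 and 93.7 CPM, where the 5 batch B saline libraries were at 79.6, 77.2, 72.3, 74.6 and 72.0 CPM. The fitted log2 fold change of Prkag2 was 0.29 (95% interval 0.02 to 0.56, adjusted p = 0.652). Against these batch B saline libraries, PYY3-36 gave values with no overlap for 3 of the 10 members, Prkag2 above saline and Prkag1 and Ppargc1a below it. Of all tested genes, 6.38% had no overlap between the same libraries and 0% were called.

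Prkag1 stood at 91.4, 93.6, 87.8 and 93.0 CPM under PYY3-36 and at 99.3, 96.2, 97.5, 99.2 and 98.6 CPM in batch B saline. Its fitted difference, which also draws on batch A saline through the batch term, was −0.10 (95% interval −0.25 to 0.05, adjusted p = 0.713). The interval includes the −0.21 of RYGB, but that value was measured against sham and not against saline. Ppargc1a stood at 38.7, 36.999, 36.8 and 41.0 CPM under PYY3-36 and at 47.9, 41.5, 41.6, 47.3 and 44.3 CPM in saline, with a fitted difference of −0.12 (95% interval −0.53 to 0.29, adjusted p = 0.863). The interaction of PYY3-36 with liraglutide in batch B was called for no member by edgeR or DESeq2, with 0 members at an unadjusted p below 0.05, against 0% called and 11.2% unadjusted of all genes. Sham surgery against saline gave no called member by either tool, 1 at an unadjusted p below 0.05, and 0.0137% called and 12.9% unadjusted of all genes.

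Only some pairs of members varied together. After the group means within each batch were removed, the median r of the 45 member pairs was 0.02 over 65 libraries. Of these pairs, 4 had r above 0.5 and 2 had r below −0.5. The highest was Prkaa2 and Prkab2 at 0.66, then Prkab1 and Prkag3 at 0.61. For the latter pair the Spearman value was 0.50, and Prkag3 was at 0 in 29 libraries. The share of all gene pairs at these levels is not given here. Ppargc1a and Ucp2 ran against each other (r = −0.59). The libraries share tissue composition and depth, which also enter these values. The genes most like Prkaa2 were Pgm2l1 (r = 0.85), Nckap1 and Ppp3cb, those most like Prkab2 were Dlgap2 (0.86), Cpsf2 and Dmxl2, and among those most like Ppargc1a were Dld (0.83) and Cplx1, a synaptic protein. Prkag1 was most like Commd4 (0.78), Tgm1 and Trmt1, Prkab1 most like Dpp7 (0.73), Npepl1 and Slc50a1, and Ucp2 most like Rab27a (0.88), Trim5 and Spint2. Prkag3 was most like Ecm1 (0.73), Pttg1ip and Adamtsl4. Prkaa1 was most like Ccdc50 (0.79), Prkag2 most like Ehd1 (0.77) and Sirt1 most like Zfp40 (0.65).

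The wider pathway was read from 7 lists of 105 genes, 104 of them tested. Between RYGB and sham, 13 rose and 6 fell, or 18.3% against 13% of all genes. The counts were 2 higher and 2 lower of 19 upstream kinases and partners, 2 higher of 13 AMPK-related kinases, and 4 higher of 19 substrates in lipid and glucose metabolism. They were 3 higher of 19 substrates in growth and autophagy, 1 lower of 14 genes of mitochondrial biogenesis, and 2 higher and 3 lower of 14 sirtuin and NAD genes. Of 6 carriers related to Ucp2, edgeR called 0, and 2 had an unadjusted p below 0.05. The number called moved with the fit, to 23 by DESeq2, 33 with no batch term, 18 without the 13 low-hypothalamus libraries (16 higher, 2 lower), 10 without sham 5 and 35 without RYGB 11. The share of all genes called under each of these fits is not given here. These counts therefore do not show a change particular to the pathway.

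Among the genes that rose was Acaca, the acetyl-CoA carboxylase that AMPK phosphorylates (log2 0.79, SE 0.17, adjusted p = 0.00316 by edgeR). Cpt1a, which links acyl groups to carnitine for entry into mitochondria, rose by 0.41 (adjusted p = 0.0130 by edgeR), and Pfkfb2 and Srebf2 by 0.28 and 0.23. Foxo3 (1.04) and Foxo1 (0.93), transcription factors of the stress response, Hdac4 (0.42), Adra1a, an adrenergic receptor (1.41, adjusted p = 0.00338), Nuak1 (0.75) and Brsk2 (0.78), both AMPK-related kinases, and Ppm1a (0.22), a phosphatase, rose too. Nmnat2 (1.001) and Nampt (0.33), enzymes of NAD synthesis, were also higher. The 6 that fell were Stk11, the LKB1 kinase that activates AMPK (−0.21, adjusted p = 0.0145), its partner Strada (−0.30, adjusted p = 0.0166), Sirt3 (−0.25), Sirt6 (−0.22), Nmnat1 (−0.39) and Kat2a (−0.23).

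Of the 19, which were chosen on both batches together, 8 were called in batch A and 7 in batch B. No gene was called in both batches, and all 19 had the same sign in both. Over all 104 genes, 5 were higher and 12 lower in batch A, or 16.3% against 8.64% of all genes. In batch B 8 were higher and 0 lower, or 7.69% against 2.74% of all genes. The responses themselves differed between the periods for no pathway gene by edgeR and for 1 by DESeq2. By edgeR, 18 of the 104 had an unadjusted p below 0.05 for this difference, against 10.4% of all genes, and 0% of all genes were called. Without the 13 low-hypothalamus libraries, Kat2a kept its call among the 6 that fell and Stk11, Strada, Sirt3, Sirt6 and Nmnat1 lost theirs, and in batch B no gene was called. Against saline, with the same RYGB animals, none of the 19 passed by edgeR, the largest value being 0.66 on the log2 scale. The share of all genes called against saline is not given here. BWM against sham, which shares the sham animals, called Cpt1a alone (0.60, adjusted p = 0.0304 by edgeR). The call was lost without BWM 5, without the 13 low-hypothalamus or the 2 pituitary-rich libraries, and with marker scores in the model. It was also lost with replicate blocks, with only the compared groups and with saline as control. The call held by DESeq2 and with counts not rounded. Within batch A, 3 genes rose in BWM (Cpt1a, Slc2a4 and Txnip) and 4 fell (Ppp2r1a, Mark4, Camkk1 and Mark3), or 6.73% against 5.28% of all genes, and without the 2 pituitary-rich libraries none passed. No pathway gene was called by edgeR or DESeq2 in RYGB against BWM, lean against sham, sham against saline or the PYY3-36, liraglutide and combined comparisons, where 19, 16, 14, 7, 0 and 1 of the 104 had an unadjusted p below 0.05, against 12.6, 12.2, 12.9, 7.54, 2.08 and 2.53% of all genes.

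**Figure D5:**
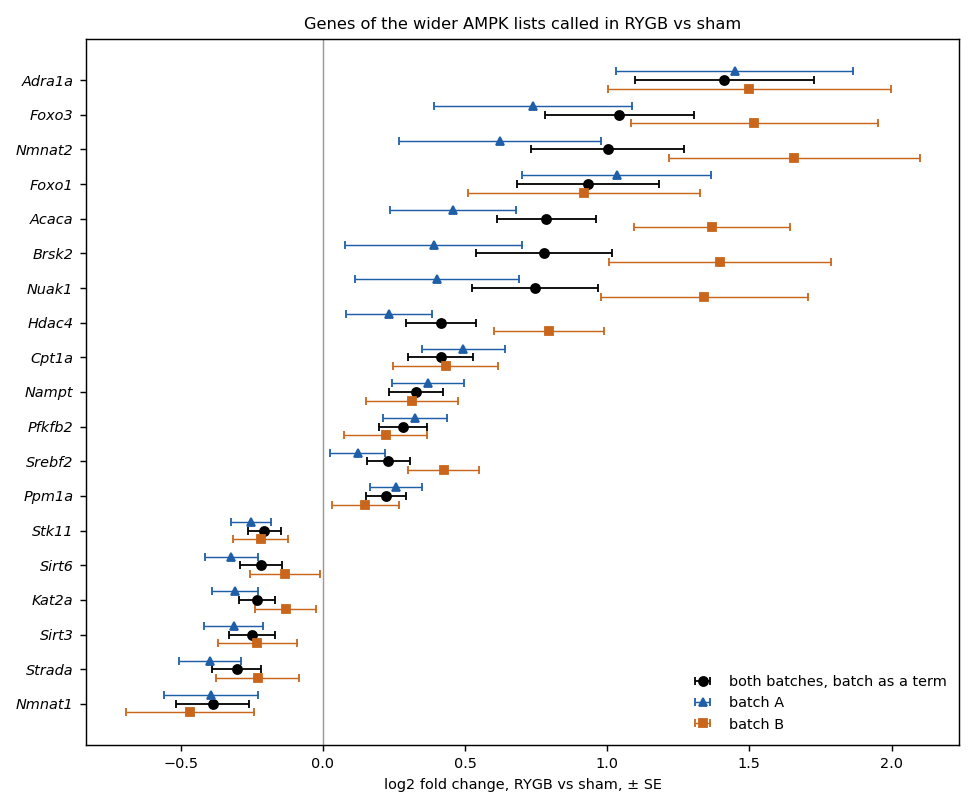
Log2 fold change ± SE of the 19 pathway genes called between RYGB and sham, over both batches and within batch A and batch B. The genes were chosen by the value over both batches, which runs from Adra1a at 1.41 to Nmnat1 at −0.39.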

How the data were processed

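Whole hypothalami were dissected from frozen brains, and poly-A RNA was sequenced with a stranded kit as single-end reads. Per the labels, the authors used bcl2fastq 2.20.0.422, cutadapt 1.16, STAR 2.7.2b and featureCounts 1.6.4 with the Rnor_6.0 genome. The values deposited by the authors are estimated counts per gene, in which reads mapping to several places were shared out, so that 30.3% of the nonzero values are not whole numbers, and they were rounded here. No 2 libraries held the same counts. Genes were filtered in edgeR 4.0.16 (R 4.3.3, limma 3.58.1) with a minimum count of 10 and total of 15, scaled by TMM and tested by edgeR's robust quasi-likelihood test in 1 model of group and batch over 65 libraries, with a model of group by batch for values within a batch. P-values were adjusted by Benjamini-Hochberg over the 21871 tested genes, and a gene was called at an adjusted p below 0.05. CPM used TMM library sizes, and CPM per kb used the exon length in the table. DESeq2 1.42.0 and DESeq2 size factors, no filter, unrounded counts, no batch term, only the compared groups, saline as control, replicate blocks, marker scores as covariates and leaving out each library were alternatives. Leaving out the 13 and the 2 libraries that stand apart was added after seeing the data. The members and all gene lists were chosen with earlier results of these data known. Named are all members, in each comparison up to 20 called pathway genes with the smallest p, and per member up to 3 genes of the highest correlation. Some items that this rule names are not reported here. Labels number the replicates within each group, and each replicate was taken as a separate animal. P-values measure the spread between these animals. The models were tested on simulated data, with a simulation and criterion that were revised after a first version missed its recovery threshold. Python 3.11.15 and matplotlib 3.10.9 drew the figures.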

Additional observations from a re-analysis of the deposited data

Results flagged for a closer look

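Of the group and batch sets of 4 to 10 libraries, 89 were examined over the members for a single library far from the others by Dixon's criterion, and 9 passed. Of these, 5 were sets of Prkag3 in which all other libraries were at 0, where any single count meets the criterion. The remaining 4 are near what chance gives, about 1 in 20. The lowest Prkaa2 value under PYY3-36 + liraglutide in batch B was 17.001 CPM in replicate 10, with the next at 24.1 CPM. The highest Prkab1 value in lean animals was 32.8 CPM in replicate 6, with the next at 25.02 CPM. The highest Prkag2 value under PYY3-36 + liraglutide in batch A was 105 CPM in replicate 1, with the next at 77.5 CPM. The highest Ppargc1a value in batch B sham was 49.3 CPM in replicate 8, with the next at 38.1 CPM. The Prkag3 values were 0.161 CPM in liraglutide replicate 1, 0.246 CPM in PYY3-36 replicate 3, 0.0887 CPM in saline replicate 7, 0.0364 CPM in sham replicate 4 and 0.144 CPM in sham replicate 11.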

How the results depend on the processing

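Counts of calls in this section are given without the share of all genes called under each setting. Their changes are therefore not read as particular to the members or the pathway. The number of members called in RYGB against sham was 1, and stayed 1 under most settings. It was 2 with no batch term, with 6 marker scores as covariates and without the 13 low-hypothalamus libraries, 0 with saline as control, and 1 to 2 when 1 library was left out (2 without sham 2 or sham 11). BWM against sham gave 0, but 3 with no batch term and 0 to 1 on leaving out a library (1 without sham 11). Lean against sham gave 0, but 1 with no batch term and 0 to 1 (1 without lean 6). Within batch A, RYGB against sham gave 1, but 0 with no filter on low counts, 2 by DESeq2, 0 with marker scores within batches, 2 without the low-hypothalamus libraries, and 0 (without sham 2 or sham 5) to 3 (without RYGB 6; 2 without RYGB 11) on leaving out a library. Batch B gave 0 to 1 (1 without sham 7). BWM in batch A gave 2, but 0 with marker scores within batches, 1 without the low-hypothalamus and 0 without the pituitary-rich libraries, and 1 to 2 on leaving out a library (1 without BWM 7, sham 2 or sham 3). Directions turned for Prkag3 in RYGB against sham (−0.0278 with 3 scores, −0.0679 with 6) and in BWM (−0.15 with 3), for Ucp2 in BWM against sham (−0.43, −0.31, and −0.024 without pituitary-rich libraries) and in RYGB against BWM (0.19, 0.0204 and 0.18), and with marker scores within batch A for Ucp2 (−0.40) and Txnip (−0.15) in BWM; the cause was not tested. Replicate numbers did not pair libraries, with a median correlation of 0.02 over 171 same-numbered pairs (lowest −0.55), and 9 of 65 libraries correlated best with their own number. With the replicate block Prkag1 was −0.22 in RYGB against sham with 1 member called, and the batch B against batch A comparison gave 0 members in place of 1, against 2 without the low-hypothalamus libraries. Pathway calls in RYGB fell from 19 to 12 with the replicate block. Prkag3 held 0 to 34 counts per library, so its values are imprecise.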
